A study of Mus musculus with 8 samples.

Results

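The 35 genes described here serve glucose uptake, glycolysis, the use of pyruvate and the response of cells to low oxygen. They were taken by name from the gene column of the 8 count tables, and all 35 were among the 26180 genes kept of the 28956 listed. The list was chosen with earlier results of these data known, so its contrasts with all genes are descriptions. Femoral stromal cells of wild-type C57BL/6 female mice were profiled by single-cell RNA sequencing (10x Chromium 3′ chemistry), after depletion of cells bearing blood-lineage markers, CD45 or CD117. Control mice were unfractured and 12 weeks old. Fracture mice had the left leg broken by three-point bending at 10 weeks of age under ketamine and xylazine, the bone was held by an intramedullary nail, carprofen was given against pain, and femurs were collected at post-fracture day 14 (PFD14), also at 12 weeks of age. No sham operation is described, so the fracture, the nail, the anaesthesia and the analgesic cannot be told apart. The sample titles number 2 replicates per group, each with a rep1 and a rep2. The first number was taken here as the preparation and rep1 and rep2 as its libraries, which the titles do not state. The libraries of a preparation were summed, so n = 2 preparations per group throughout. How many mice a preparation holds is not given in the sources used here, and the p-values measure only the spread between these preparations.

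Glycolysis splits glucose to pyruvate in the cytosol and yields ATP without oxygen. Lactate dehydrogenase then turns pyruvate into lactate, which leaves the cell through monocarboxylate transporters. When oxygen is plentiful, prolyl hydroxylases of the EGLN family mark the protein made from Hif1a for degradation, and when it is scarce that protein persists and binds, with its partner, short DNA elements around an ACGTG or GCGTG core near genes of glycolysis, mitophagy and collagen modification. Cartilage has no blood vessels of its own, so chondrocytes of the growth plate and of fracture callus are a classic setting for this programme, and hypertrophic chondrocytes, marked by the collagen gene Col10a1, are the large cells that border invading vessels.

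Depth per library ranged from 56543151 to 89126291 unique molecular identifiers (UMIs, tags that stand for single captured RNA molecules), and 45328 of 48903 barcodes passed the filters. Median depth per kept cell was 7170 to 8685 UMIs in the Control libraries and 10640 to 12708 UMIs in the Fracture libraries. The smallest barcode held 1 to 3 UMIs in the Control tables and 1929 to 2724 UMIs in the Fracture tables, so the tables do not start from the same range of barcodes. At most 23 barcodes were shared by 2 libraries. Cells were clustered on genes that left out all 35, and clusters were named from marker genes as chondrocyte-like, osteoblast-like, BMSC-like (bone marrow mesenchymal stromal cells), fibroblast-like, endothelial-like and smooth muscle-like. Although the samples are labelled as bone stromal cells, clusters led by basophil, erythroid and megakaryocyte genes also remained, and they entered no test. Chondrocyte-like cells numbered 2457 and 906 in Control and 6824 and 7147 in Fracture, or 26.8%, 18.1%, 59.5% and 58.1% of the cells of the 6 stromal classes. The summed level of 9 chondrocyte markers in this class was 88840 and 77960 CPM (UMI counts scaled to a common total) in Control and 96290 and 95190 CPM in Fracture. Clustered without integration, however, most Control cells of the class (1645 and 531, against 364 and 125) fell in a cluster led by Serpina1a, Serpina1d and Fxyd2. Most Fracture cells (5722 and 6007, against 1185 and 1244) fell in a cluster led by Aldh1a3, Frzb and Col10a1, so the groups hold different mixes of chondrocyte-like cells under 1 name. Other classes carried their own markers at lower levels in Fracture, from 106900 and 124400 to 45600 and 58530 CPM in osteoblast-like, from 17250 and 18600 to 7945 and 8556 CPM in fibroblast-like, from 41110 and 39300 to 21080 and 22560 CPM in smooth muscle-like and from 7460 and 7397 to 5880 and 5819 CPM in endothelial-like cells. In BMSC-like cells the 8 BMSC markers summed to 27510 and 29230 CPM in Control but to 2029 and 2473 CPM in Fracture, below the osteoblast markers in the same Fracture cells (9705 and 10640 CPM), so the Fracture cells of that class do not match its name at the Control level. What these shifts contribute to the differences described here was not tested.

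Promoters of the 4 genes with the largest Fracture differences in chondrocyte-like cells that passed the test are shown here, because the transcription factor of this programme binds the cores ACGTG and GCGTG. RefSeq (GRCm38.p6) gave a window of 250 bases before the start for 32 of the 35 genes, and Bnip3l, Slc2a3 and Ndrg1 were without an entry. The printed stretches, 5′ to 3′ on the strand of the gene, are chr7:110627407-110627656 (plus strand) for Adm, chr12:54203875-54204124 (minus strand) for Egln3, chr11:120948817-120949052 (plus strand) for Slc16a3 and chr4:43506776-43506965 (plus strand) for Car9. Capitals mark ACGTG or GCGTG on either strand, so that CACGT and CACGC are the same cores read from the other strand.
Adm: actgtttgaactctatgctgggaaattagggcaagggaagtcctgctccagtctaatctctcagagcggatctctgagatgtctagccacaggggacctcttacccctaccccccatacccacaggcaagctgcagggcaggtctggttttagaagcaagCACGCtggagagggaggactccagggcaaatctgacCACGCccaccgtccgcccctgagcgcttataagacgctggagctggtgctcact
Egln3: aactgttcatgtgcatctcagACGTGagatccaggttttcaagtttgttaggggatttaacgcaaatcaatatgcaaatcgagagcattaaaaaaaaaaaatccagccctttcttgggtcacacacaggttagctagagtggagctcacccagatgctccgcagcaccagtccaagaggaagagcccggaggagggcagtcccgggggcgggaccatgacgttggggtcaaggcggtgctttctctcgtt
Slc16a3: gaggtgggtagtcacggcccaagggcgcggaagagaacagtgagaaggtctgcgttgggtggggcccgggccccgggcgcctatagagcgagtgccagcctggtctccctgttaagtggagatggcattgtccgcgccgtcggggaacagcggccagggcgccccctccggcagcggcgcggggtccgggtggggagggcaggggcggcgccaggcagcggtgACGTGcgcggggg
Car9: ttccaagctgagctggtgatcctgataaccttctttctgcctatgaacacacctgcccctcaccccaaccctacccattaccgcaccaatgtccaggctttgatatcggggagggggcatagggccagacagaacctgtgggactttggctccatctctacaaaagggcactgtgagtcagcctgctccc
Adm, which encodes the vasoactive peptide adrenomedullin (gene at chr7:110627661-110629820 in GENCODE M21), held 2 matches. Egln3, a prolyl hydroxylase that acts on the Hif1a protein (chr12:54178981-54203860, minus strand), held 1 match. Slc16a3, the lactate exporter MCT4 (chr11:120948480-120960868), held 2 matches, of which 1 is shown because 14 bases of its window lie in an annotated exon, and the RefSeq start used here lies inside the longer GENCODE gene. Car9, a carbonic anhydrase of the cell surface (chr4:43506966-43513729), held 1 match, within the 60 bases of its window that lie in an annotated exon and are not printed.

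Over the whole list, 17 of the 32 windows held ACGTG and 17 held GCGTG on either strand, and 26 (81.2%) held at least 1 of the cores. Among the windows of all 27025 genes with an entry these shares were 16.6%, 28.2% and 38.6%. The cores differ in their first letter, so they cannot match at the same place on a strand. The windows of Aldoa, Gpi1, Hk1, Mxi1, Pkm and Tpi1 held neither core. Both cores contain a CpG dinucleotide, and the windows of the 32 genes held a median of 16.5 CpG dinucleotides against 6.0 in all genes. A match says only that these letters are in the window.

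As a group, the 35 genes stood at a higher summed level in Fracture than in Control in each of the 6 stromal classes. In chondrocyte-like cells their summed level was 3973 and 4603 CPM in Control against 6344 and 6086 CPM in Fracture, a log2 difference of 0.54 between the means (4288 ± 446 and 6215 ± 182 CPM, SD, n = 2). In BMSC-like cells the summed level was 1999 and 1897 CPM in Control and 4174 and 3709 CPM in Fracture (log2 difference 1.02). In fibroblast-like cells it was 4242 and 3446 CPM against 6753 and 6205 CPM (0.75). Both Fracture preparations lay above both Control preparations in these classes, and also in osteoblast-like, endothelial-like and smooth muscle-like cells, where the log2 differences were 0.50, 0.32 and 0.26. The 9 chondrocyte markers went from 2808 and 745 to 15120 and 15440 CPM in the endothelial-like and from 1497 and 1224 to 11350 and 6376 CPM in the smooth muscle-like cells. With the chondrocyte-like profile subtracted (a setting added after the values were seen), the log2 differences there were 0.14 and 0.16, and they were 0.57 in osteoblast-like, 1.0 in BMSC-like and 0.76 in fibroblast-like cells. Gapdh, the most used reference gene of the list, did not carry the sum, since without it the log2 difference was 0.53 in chondrocyte-like and 0.94 in BMSC-like cells. With 2 preparations a group an exact permutation test cannot give a two-sided p below 0.333, so the sums carry no test. Over all stromal cells together the level was 2745 and 2571 CPM in Control and 5441 and 5149 CPM in Fracture, a value that also holds the larger share of chondrocyte-like cells.

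**Figure D1:**
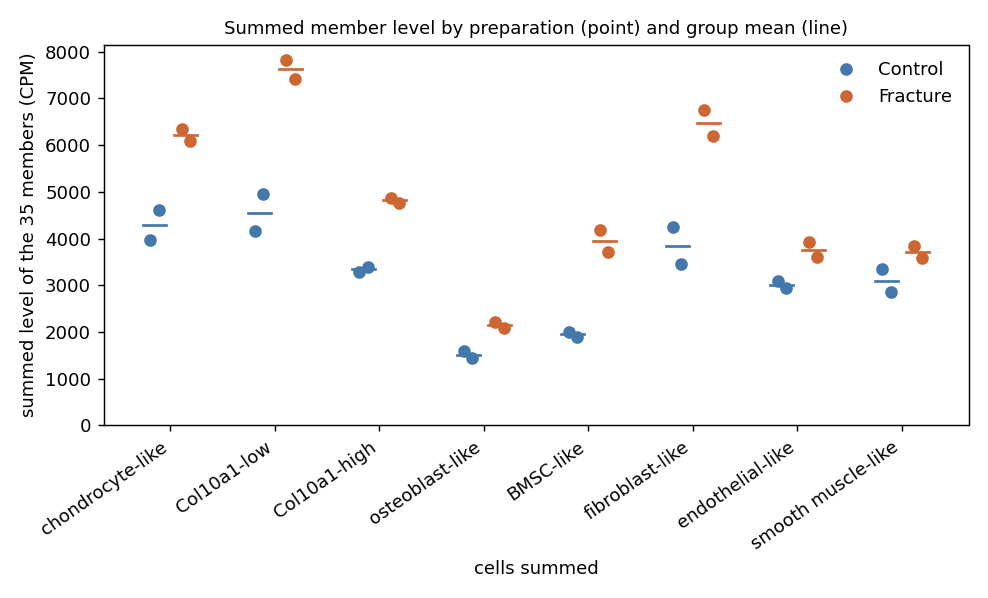
Summed level of the 35 genes in CPM for each preparation, by cell class, with Control and Fracture points and a line at the mean of each group. In chondrocyte-like cells the Fracture points sit at 6344 and 6086 CPM, above the Control points at 3973 and 4603 CPM, and the osteoblast-like class has the lowest points of the stromal classes in both groups.

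The sums of the roles differed by unequal amounts in chondrocyte-like cells. The 3 glucose and lactate transporters summed to 67.4 ± 11.6 CPM in Control and 128 ± 2.81 CPM in Fracture (SD, n = 2, log2 difference 0.92). The 3 mitophagy and mitochondrial genes summed to 392 ± 77.8 and 673 ± 40.1 CPM (0.78), and the 2 collagen prolyl hydroxylase subunits to 409 ± 28.0 and 623 ± 12.1 CPM (0.61). Smaller differences stood for the 7 enzymes from aldolase to pyruvate kinase (0.56), for the 2 genes at the fate of pyruvate (0.46), for the 5 genes of oxygen sensing and its feedback (0.42) and for the 8 enzymes of the upper steps from hexokinase to phosphofructokinase (0.27). The remaining 5 hypoxia response genes summed to 104 ± 7.94 CPM in Control and 109.8 ± 3.94 CPM in Fracture (0.076).

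Gene by gene, 26 of the 35 passed the test in chondrocyte-like cells (edgeR quasi-likelihood test on UMI counts summed per preparation, Benjamini-Hochberg adjusted p under 0.05), 23 of them higher and 3 lower in Fracture. Of all 17539 genes tested 39.8% passed, 19.9% higher and 19.9% lower. The median log2 change of the 35 was 0.67, against -0.017 over all genes tested. In 29 of them both Fracture preparations lay above both Control preparations and in 3 below, a separation that 75.1% of all genes tested also showed in 1 direction or the other. The calls depend on both Fracture preparations, and few of them held without either. The same was so over all genes tested, since the spread then comes from the Control pair alone. Without Fracture preparation 1 or 2 the median log2 change of the 35 was 0.67 and 0.71, and without Control preparation 1 or 2 it was 0.57 and 0.82. Scaling by total UMIs instead of by TMM factors (trimmed mean of M-values) moved the median of all genes to -0.22 and the share of higher calls among all calls from 50.1% to 27.1%, while the median of the 35 was then 0.47. Levels below are TMM-scaled CPM in the order Control 1, Control 2, Fracture 1, Fracture 2, and a log2 change is Fracture over Control with its SE.

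**Figure D2:**
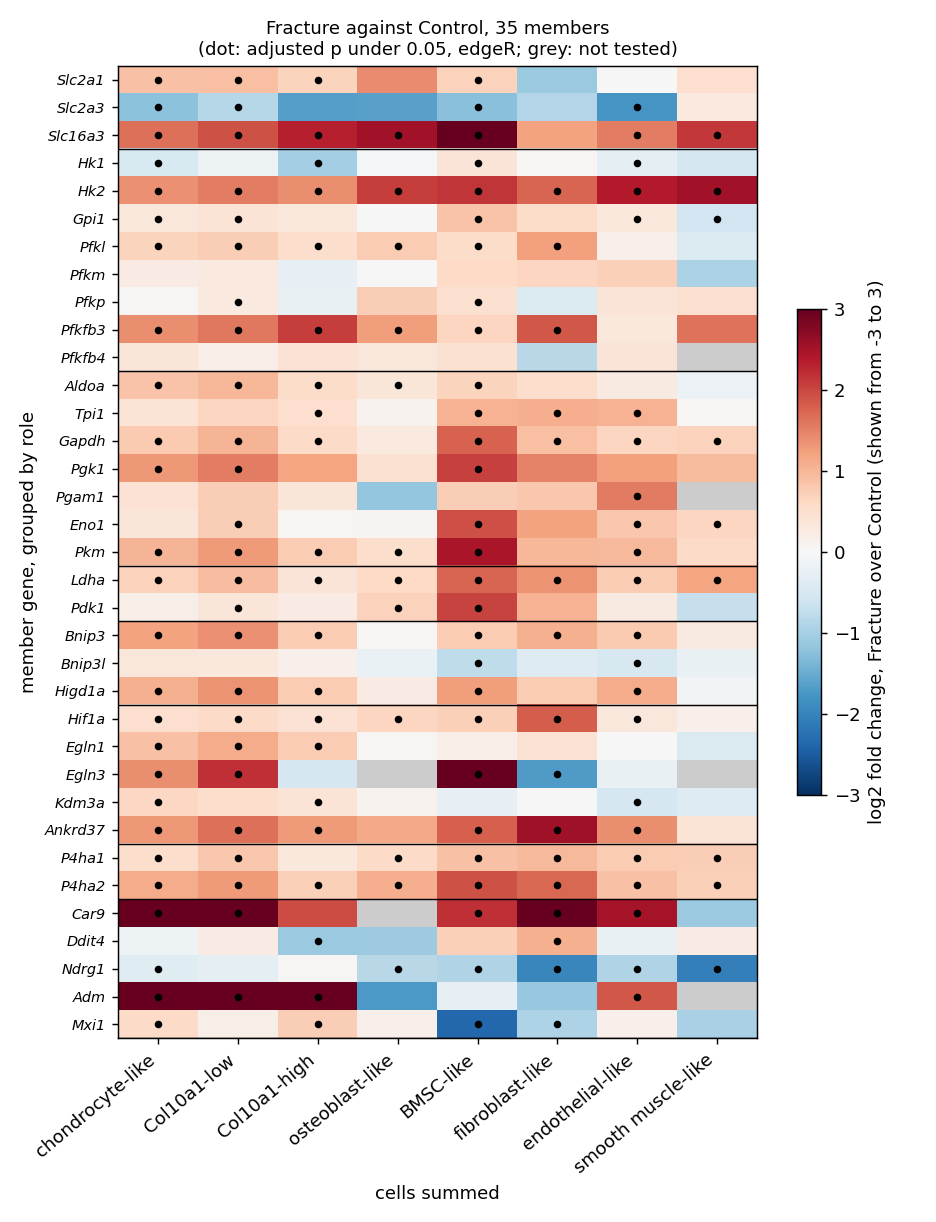
Heat map of the log2 change, Fracture over Control, of each of the 35 genes (rows) in 8 sums of cells (columns), with colour limited to the range from -3 to 3, a dot where edgeR's adjusted p is under 0.05 and grey where a gene was not tested. The chondrocyte-like column has 23 dots on genes that were higher and 3 on genes that were lower, and Ndrg1 is lower with a dot in each of the 6 stromal classes.

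Among the transporters, Slc2a1 and Slc16a3 rose in chondrocyte-like cells and Slc2a3 fell. Slc2a1, the glucose transporter GLUT1, stood at 32.5, 37.8, 64.8 and 63.6 CPM and rose by 0.87 ± 0.091 (edgeR adjusted p = 0.00494). Slc2a3, a neuronal-type glucose transporter with high affinity, stood at 6.33, 4.08, 2.15 and 2.40 CPM and fell by 1.22 on the log2 scale (SE 0.23, edgeR adjusted p = 0.0191). Slc16a3 stood at 16.5, 28.5, 71.2 and 69.7 CPM and rose by 1.65 ± 0.27 (edgeR adjusted p = 0.0135). Megakaryocyte markers, whose cluster Slc2a3 also leads, went from 228 and 65.2 to 16.8 and 18.6 CPM in the same cells. In endothelial-like and BMSC-like cells, where Slc2a3 was also lower, they went from 406 and 234 to 36.3 and 38.8 CPM and from 369 and 113 to 21.2 and 33.5 CPM. Their part in it was not tested. In all 3 transporter genes the groups did not overlap, and the Control preparations of Slc16a3 lay further apart than its Fracture preparations.

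The first committed steps of glycolysis moved in both directions. Hk2, the inducible hexokinase, stood at 31.7, 39.5, 76.8 and 107 CPM and rose by 1.37 ± 0.20 (edgeR adjusted p = 0.0102), whereas Hk1, the hexokinase of most resting tissues, stood at 55.5, 57.8, 41.6 and 41.5 CPM and fell by 0.45 on the log2 scale (SE 0.056, edgeR adjusted p = 0.00710). The groups did not overlap in either gene. Pfkfb3, a bifunctional enzyme that makes the allosteric activator of phosphofructokinase, stood at 12.6, 15.0, 36.1 and 36.3 CPM and rose by 1.39 ± 0.10 (edgeR adjusted p = 0.00254). Its relative Pfkfb4 stayed between 1.56 and 2.32 CPM and did not pass (edgeR adjusted p = 0.207). Of the phosphofructokinase subunits themselves, only Pfkl passed, with a rise of 0.67 ± 0.14 (edgeR adjusted p = 0.0216), while Pfkm changed by 0.25 (edgeR adjusted p = 0.0507) and Pfkp by 0.027 (0.724). Gpi1, the isomerase between hexokinase and phosphofructokinase, rose by 0.34 ± 0.082 (edgeR adjusted p = 0.0342).

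From aldolase to pyruvate kinase, 4 of 7 genes rose and none fell. Pkm, the pyruvate kinase gene, stood at 477, 515, 1035 and 991 CPM and rose by 1.03 ± 0.073 (edgeR adjusted p = 0.00240). Pgk1, phosphoglycerate kinase, stood at 18.8, 15.4, 51.6 and 32.4 CPM and rose by 1.29 ± 0.26 (edgeR adjusted p = 0.0205), with its Fracture preparations far apart. Gapdh rose by 0.78 ± 0.10 and Aldoa by 0.86 ± 0.14. Eno1 (0.36), Tpi1 (0.41) and Pgam1 (0.42) had positive log2 changes that did not pass, and Pgam1 lay at only 1.83 to 3.68 CPM. Several of these enzymes have near-identical copies, over which reads can be split or lost. The copy Gm5506 drew 1281 UMIs beside 116538 for Eno1, Pgk1-rs7 drew 270 beside 11501 for Pgk1, and Pgam1-ps2 drew 356 beside 983 for Pgam1, so the levels of Pgk1 and Pgam1 in particular are uncertain.

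At the fork after pyruvate, Ldha, which makes lactate, stood at 562, 632, 969.9 and 947 CPM and rose by 0.68 ± 0.083 (edgeR adjusted p = 0.00678). Pdk1, the kinase that holds pyruvate dehydrogenase inactive, stood at 35.9, 38.4, 40.5 and 42.9 CPM and did not pass (log2 change 0.17, edgeR adjusted p = 0.125). The mitophagy receptor Bnip3 stood at 49.8, 63.8, 126 and 134 CPM and rose by 1.20 ± 0.13 (edgeR adjusted p = 0.00566). Bnip3l, its relative and also a mitophagy receptor, differed by 0.34 and did not pass (edgeR adjusted p = 0.0864). Higd1a, a small hypoxia-inducible protein of the mitochondrial inner membrane, rose by 1.08 ± 0.17 (edgeR adjusted p = 0.0116). All 5 of these genes had a positive log2 change, and 3 of them passed.

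All 5 genes of oxygen sensing and its feedback rose in chondrocyte-like cells. Hif1a itself stood at 234, 218, 316 and 322 CPM and rose by 0.50 ± 0.060 (edgeR adjusted p = 0.00668), a change in its RNA, where the known control by oxygen acts on the protein. The hydroxylases Egln1 and Egln3 are HIF targets as well as its brakes. Egln1 stood at 64.5, 75.2, 130.1 and 128 CPM and rose by 0.88 ± 0.089, and Egln3 stood at 1.38, 1.41, 3.90 and 3.46 CPM, from 46, 20, 325 and 325 UMIs, and rose by 1.4 ± 0.15 (edgeR adjusted p = 0.00533). Kdm3a, a histone demethylase, and Ankrd37, a small ankyrin-repeat protein, rose by 0.63 ± 0.11 and 1.30 ± 0.25. P4ha1 and P4ha2, catalytic subunits of the enzyme that hydroxylates prolines of collagen, rose by 0.53 ± 0.064 and 1.11 ± 0.070, and P4ha2 stood at 154, 171, 353 and 350.0 CPM.

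The widest changes of the list belonged to Adm and Car9, both scarce in Control chondrocyte-like cells. Adm stood at 0.810, 1.13, 18.3 and 14.6 CPM, from 27, 16, 1523 and 1377 UMIs, and rose by 4.14 ± 0.21 (edgeR adjusted p = 0.00140). Car9 stood at 0.330, 0.352, 4.21 and 4.48 CPM, from 11, 5, 351 and 421 UMIs, and rose by 3.68 ± 0.18 (edgeR adjusted p = 0.00132). Mxi1, a Max-binding repressor that opposes Myc, rose by 0.58 ± 0.090. Ndrg1, a stress- and hypoxia-responsive gene, went the other way, at 14.1, 15.6, 10.8 and 12.2 CPM, and fell by 0.37 on the log2 scale (SE 0.10, edgeR adjusted p = 0.0473). Ddit4, an inhibitor of mTORC1 that glucocorticoids also induce, stood at 68.1, 52.4, 55.2 and 53.3 CPM with overlapping groups and did not pass (edgeR adjusted p = 0.430).

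Genes of the same pathways outside the 35 passed at unequal rates in chondrocyte-like cells. Of 32 tested genes of a wider glycolysis and pyruvate list, 7 were higher and 4 lower, or 34.4% of the list against 39.8% of all genes (median log2 change 0.19). Of 39 tested genes of a wider HIF and hypoxia list, 20 were higher and 5 lower, or 64.1% (median 0.37). Aldoc, an aldolase, rose by 2.05 ± 0.18, Ldhb, the lactate dehydrogenase subunit that favours pyruvate, by 1.63 ± 0.15 and Pgm2, a phosphoglucomutase, by 0.96 ± 0.086. Plod1, a collagen lysyl hydroxylase, rose by 1.48 ± 0.058, Ero1l, an oxidase of the endoplasmic reticulum, by 1.42 ± 0.13, and Vegfa, the vascular growth factor, by 1.33 ± 0.18. Bhlhe41, a transcriptional repressor, stood at 318, 301, 105 and 113 CPM and fell by 1.51 on the log2 scale (SE 0.065), and Bpgm, which makes 2,3-bisphosphoglycerate, fell by 0.39 (SE 0.069). All of these passed edgeR's test, with adjusted p from 0.000958 for Plod1 to 0.0155 for Bpgm.

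Col10a1 splits the chondrocyte-like class into cells below 10 Col10a1 UMIs per 10000 and cells at or above it. This is a range and not a cell type: 161 and 41 Control cells and 2196 and 2258 Fracture cells lay between 3 and 30 UMIs per 10000, close to the limit. Col10a1-high cells were 364 and 136 cells in Control and 3249 and 3348 cells in Fracture, or 14.8%, 15.0%, 47.6% and 46.8% of the class (means 14.9% ± 0.139 and 47.2% ± 0.542, SD, n = 2, exact permutation test p = 0.333, the smallest it can give). With the limit at 3 the shares were 18.6%, 17.4%, 73.3% and 72.0%, and the difference between the means was 54.6 points in place of 32.3. Cells with no Col10a1 UMI numbered 1470 and 626 in Control and 171 and 198 in Fracture. Erythroid-like cells, which should lack the gene, had a median of 0 Col10a1 UMIs per 10000 in both Control preparations but 3.79 and 3.37 in Fracture, and 11.2% and 12.8% of them reached the limit of 10 there, against 1.46% and 0.112% in Control. Such Col10a1 RNA can set who counts as low or lacks the gene in Fracture. Whether it is free RNA or comes from doublets or misnamed cells, and its part in the shares, was not tested.

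Both ranges of chondrocyte-like cells held more of the 35 transcripts in Fracture. In Col10a1-high cells 19 of the 35 genes were higher and 2 lower (9.8% and 9.89% of all 14936 genes, 19.7% in both directions), with a median log2 change of 0.50 against 0.009 over all genes, and 28 had groups that did not overlap (66.5% of all genes). In Col10a1-low cells 24 were higher and 1 lower (17.1% and 16% of all 16431 genes), with a median of 0.80 against -0.015, and 34 had groups that did not overlap (73.4% of all genes). Slc16a3 rose in both, from 6.47 and 9.08 to 36.5 and 39.4 CPM in Col10a1-high cells (2.33 ± 0.18, edgeR adjusted p = 0.00238) and from 19.2 and 34.3 to 104 and 97.7 CPM in Col10a1-low cells (1.92 ± 0.29, edgeR adjusted p = 0.0130). Pfkfb3 rose from 5.08 and 5.72 to 22.3 and 22.6 CPM in the first (2.08 ± 0.10, edgeR adjusted p = 0.00108) and from 14.7 and 17.8 to 48.5 and 48.6 CPM in the second (1.58 ± 0.11, edgeR adjusted p = 0.00288). Hk2 rose in both as well, from 24.2 and 26.6 to 56.6 and 76.7 CPM (1.4 ± 0.18, edgeR adjusted p = 0.00895) and from 34.1 and 43.7 to 92.9 and 132 CPM (1.53 ± 0.22, edgeR adjusted p = 0.0113). For these 3 genes the groups did not overlap in either range. Among Col10a1-high cells alone, Adm rose from 1.39 and 1.35 to 26.7 and 21.4 CPM (4.13 ± 0.25, edgeR adjusted p = 0.00140) and Pkm from 416 and 417 to 714 and 705 CPM (0.77 ± 0.066, edgeR adjusted p = 0.00333). The Control values of Adm rest on few molecules in these Col10a1-high cells. The 2 genes that fell there were Hk1, from 61.0 and 59.2 to 29.5 and 29.7 CPM (-1.02 ± 0.088, edgeR adjusted p = 0.00334), and Ddit4, from 108 and 66.6 to 41.7 and 39.8 CPM (-1.11 ± 0.23, edgeR adjusted p = 0.0331). In Col10a1-low cells Ankrd37 rose from 5.34 and 9.70 to 23.2 and 23.6 CPM (1.66 ± 0.29, edgeR adjusted p = 0.0187) and Pgk1 from 19.9 and 17.9 to 67.8 and 41.8 CPM (1.54 ± 0.25, edgeR adjusted p = 0.0156). In all 6 of these comparisons the groups did not overlap. Car9 rose in Col10a1-low cells, from 7 and 5 UMIs to 279 and 334 (4.40 ± 0.24, edgeR adjusted p = 0.00213), but in Col10a1-high Control cells it had 4 and 0 UMIs and did not pass. Without Fracture preparation 1 or 2, edgeR called 1 and 1 of the 35 in Col10a1-high cells and 0 and 0 in Col10a1-low cells, with 19 and 22, and 23 and 23, at an unadjusted p under 0.05. Of all genes 0.659% and 0.572% were then called in Col10a1-high and 0% in Col10a1-low cells, and 17.6% to 26.3% had an unadjusted p under 0.05.

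Within the same preparations, Col10a1-high cells held less of most of these transcripts than Col10a1-low cells. With the preparation as a block, edgeR called 20 of the 35 lower and 4 higher in Col10a1-high cells, where 18.3% of all 17330 genes were lower and 16.8% higher, and the median log2 difference was -0.39 against -0.019 over all genes. Scaled by total UMIs the count was 24 lower and 1 higher and the median of all genes -0.21. Of all genes 37.0% were then called, and 24.0% of those calls were higher, against 47.9% with TMM factors. The ranges hold different cells of the same preparations, and Col10a1 was not left out of the clustering that defined the class. Pfkfb3 stood at 13.7, 16.3, 45.3 and 45.5 CPM in Col10a1-low cells and at 5.37, 5.93, 24.6 and 24.8 CPM in Col10a1-high cells. Slc16a3 stood at 18.0, 31.4, 96.9 and 91.3 CPM in the low and at 6.84, 9.41, 40.4 and 43.3 CPM in the high range. Both were lower in the high range in 4 of 4 preparations, with log2 differences of -1.02 ± 0.11 (edgeR adjusted p = 0.000686) and -1.29 ± 0.099 (edgeR adjusted p = 0.000193).

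The lower glycolytic enzymes followed the same order, with 6 of 7 called lower in Col10a1-high cells: Eno1 by -0.88, Pgam1 by -0.86, Tpi1 by -0.80, Pgk1 by -0.67, Gapdh by -0.41 and Pkm by -0.38. Eno1 stood at 284, 349, 575 and 487 CPM in the low and at 214, 211, 247 and 219.6 CPM in the high range (SE 0.14, edgeR adjusted p = 0.00349), Tpi1 at 209, 294, 411 and 389 against 135, 163, 227 and 216 CPM (SE 0.064, edgeR adjusted p = 0.000226), and Pgk1 at 18.6, 16.4, 63.3 and 39.1 against 16.3, 7.67, 36.7 and 23.8 CPM (SE 0.12, edgeR adjusted p = 0.00615). Ankrd37 (-1.27 ± 0.15) and P4ha1 (-0.55 ± 0.097) were lower in 4 of 4 preparations as well. Adm ran against them, at 0.636, 0.997, 6.95 and 5.72 CPM in Col10a1-low cells and 1.47, 1.39, 29.6 and 23.6 CPM in Col10a1-high cells, higher in 4 of 4 preparations (1.92 ± 0.18, edgeR adjusted p = 0.000432). Its Control levels rest on few molecules, since the Col10a1-high sums of Control held only 6536002 and 3006732 UMIs. Bnip3l, Kdm3a and Mxi1 were also called higher, by 0.25 (SE 0.057, edgeR adjusted p = 0.0137), 0.45 and 0.59 (SE 0.14, edgeR adjusted p = 0.0147). Bnip3l stood at 57.7, 70.0, 82.2 and 78.8 CPM in the low and at 68.9, 90.6, 92.8 and 92.5 CPM in the high range. Scaled by total UMIs, Bnip3l (0.051, edgeR adjusted p = 0.521), Kdm3a (0.26, edgeR adjusted p = 0.111) and Mxi1 (0.39, edgeR adjusted p = 0.113) no longer passed. Adm still passed (1.74, edgeR adjusted p = 0.00132). Without Fracture preparation 1 there were 14 calls and without Fracture preparation 2 there were 12, against 27 and 22 without Control preparation 1 or 2 (23.3%, 22.5%, 35.2% and 35.1% of all genes).

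**Figure D3:**
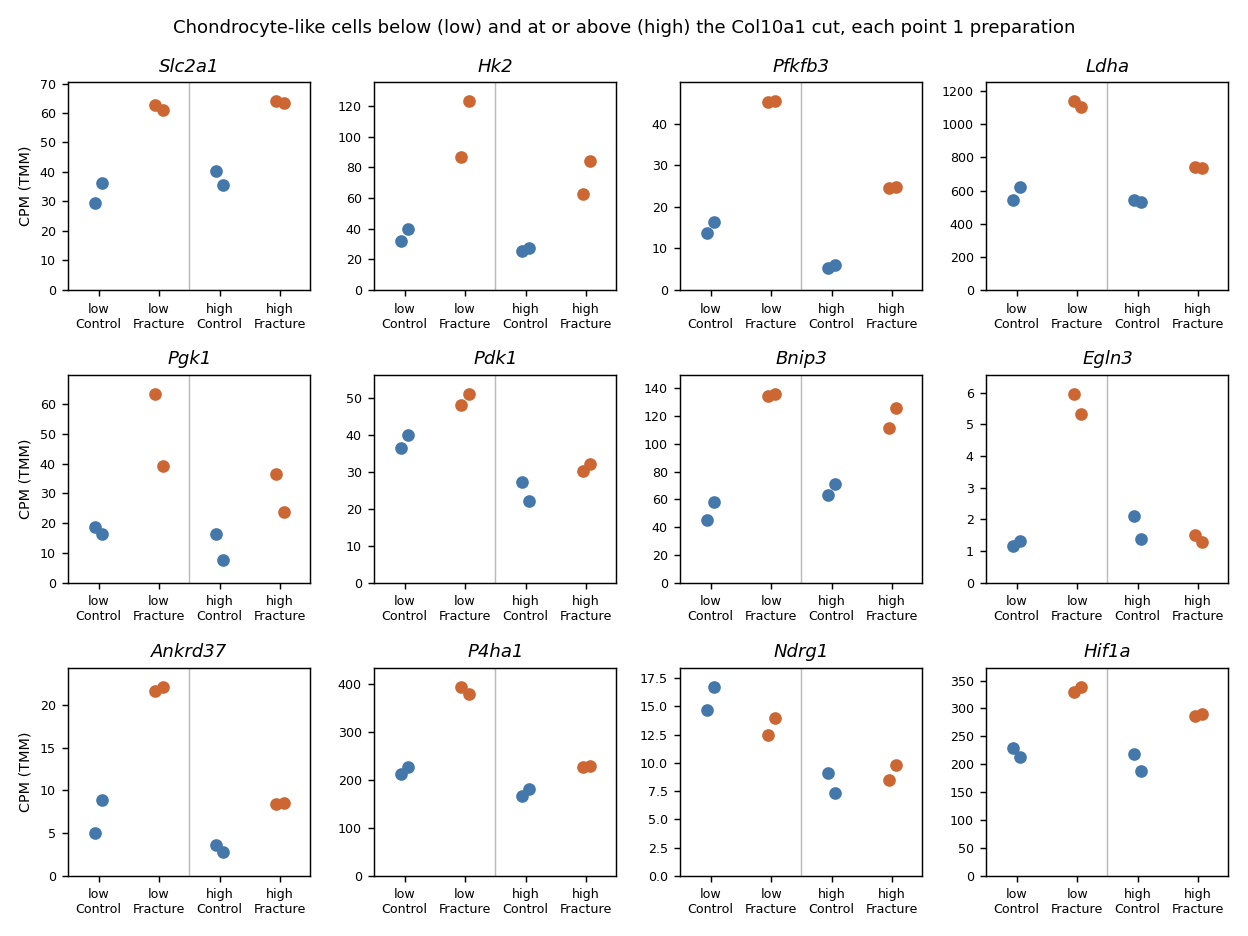
Levels of 12 of the genes in TMM-scaled CPM in Col10a1-low and Col10a1-high chondrocyte-like cells, with blue points for the 2 Control and orange points for the 2 Fracture preparations. Egln3 is at 5.96 and 5.32 CPM only in Fracture Col10a1-low cells and between 1.17 and 2.12 CPM in the other 3 sets of cells.

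The log2 difference between Col10a1-high and Col10a1-low cells, called the step here, was itself lower in Fracture than in Control for 14 of the 35 genes and higher for Mxi1 (interaction of range and group in edgeR, preparation as block). Of all 17330 genes 13.4% passed this test, 7.55% with a lower and 5.85% with a higher step in Fracture. Egln3 stood at 1.17, 1.33, 5.96 and 5.32 CPM in Col10a1-low cells and at 2.12, 1.39, 1.51 and 1.30 CPM in Col10a1-high cells, so the step differed by -2.64 ± 0.49 (edgeR adjusted p = 0.00163). Ddit4 stood at 55.4, 45.4, 61.3 and 60.0 CPM in the low range and at 115, 69.0, 46.2 and 43.8 CPM in the high range, higher there in both Control and lower in both Fracture preparations (-1.35 ± 0.095, edgeR adjusted p = 1.452e-07). Hk1 stood at 51.4, 53.6, 48.2 and 48.0 CPM in the low range and at 64.5, 61.4, 32.6 and 32.6 CPM in the high range, again higher there in both Control and lower in both Fracture preparations (-0.84 ± 0.082, edgeR adjusted p = 4.834e-06). Eno1, with the levels given above, had a step that differed by -0.64 ± 0.081 (edgeR adjusted p = 6.409e-05). Bnip3 went from 45.0, 58.4, 134 and 136 CPM in the low to 63.2, 70.8, 112 and 126 CPM in the high range (-0.59 ± 0.092, edgeR adjusted p = 0.000375), and Higd1a from 197, 269, 562 and 632 to 196, 229, 352 and 408 CPM (-0.54 ± 0.069, edgeR adjusted p = 6.082e-05). The other genes with a lower step were P4ha2 (-0.52), Ldha (-0.49), Pkm (-0.44), Pfkp (-0.43), P4ha1 (-0.42), Aldoa (-0.39), Gapdh (-0.37) and Egln1 (-0.33). Mxi1 stood at 18.4, 20.4, 22.4 and 21.6 CPM in the low and at 20.4, 25.1, 39.9 and 39.5 CPM in the high range (0.65 ± 0.12, edgeR adjusted p = 0.00153).

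These differences of steps depend on how the range is set. With the limit at 3 UMIs per 10000 there were 7 calls, with the limit at 30 there were 19, and without the preparation as a block there were 2 (10.8%, 16.2% and 3.47% of all genes). Leaving out Control preparation 1 or 2 gave 11 and 20 calls, and leaving out Fracture preparation 1 or 2 gave 10 and 14 (8.39%, 11.6%, 6.77% and 8.16% of all genes). Scaled by total UMIs, 2 genes had a higher and 12 a lower step, with the median of all genes at 0.22 and 13 in place of 6 of the 35 above 0. Of all genes 18.6% were then called, and 75.8% of those calls were higher, against 43.6% with TMM factors. The tendency of the whole list towards a lower step rests on Control preparation 1: the median difference of steps was -0.37 with all preparations, but -0.016 without that preparation, with 17 of the 35 above 0.

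CPM in the finer ranges of Col10a1 was scaled with Col10a1 left out of the total, unlike the CPM given above. Across these ranges, the summed level of the 35 genes was lower with no Col10a1 UMI than over 0 to 3 UMIs per 10000, and lowest over 100, in both groups. In Fracture cells it was 6255 and 6618 CPM in cells with no Col10a1 UMI, 7784 and 7445 CPM over 0 to 3 UMIs per 10000, 8001 and 7451 CPM over 3 to 10, 7099 and 7010 CPM over 10 to 30, 6096 and 5944 CPM over 30 to 100, and 4268 and 4141 CPM over 100. In Control cells it was 4101 and 4887 CPM with no Col10a1 UMI, 4283 and 5229 CPM over 0 to 3 UMIs per 10000 and 3193 and 3128 CPM over 100, with 19 to 24 cells of Control preparation 2 in each of 3 ranges between. At over 100 UMIs per 10000 both Fracture preparations stood above both Control preparations. Slc16a3 in Fracture followed a like course, from 60.3 and 70.8 CPM at 0 through 99.6 and 88.6 CPM over 3 to 10 to 24.8 and 25.8 CPM over 100. Adm instead stood at 4.39 and 4.36 CPM at 0, at 7.91 and 6.94 CPM over 3 to 10 and at 34.3 and 26.9 CPM over 100, so it parted from the sum only above 3 to 10 UMIs per 10000. Erythroid-like Fracture cells had medians of 3.79 and 3.37 Col10a1 UMIs per 10000, so the lowest ranges in Fracture lie at the level of such RNA. Its part in these courses, and that of depth per cell, was not tested.

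**Figure D4:**
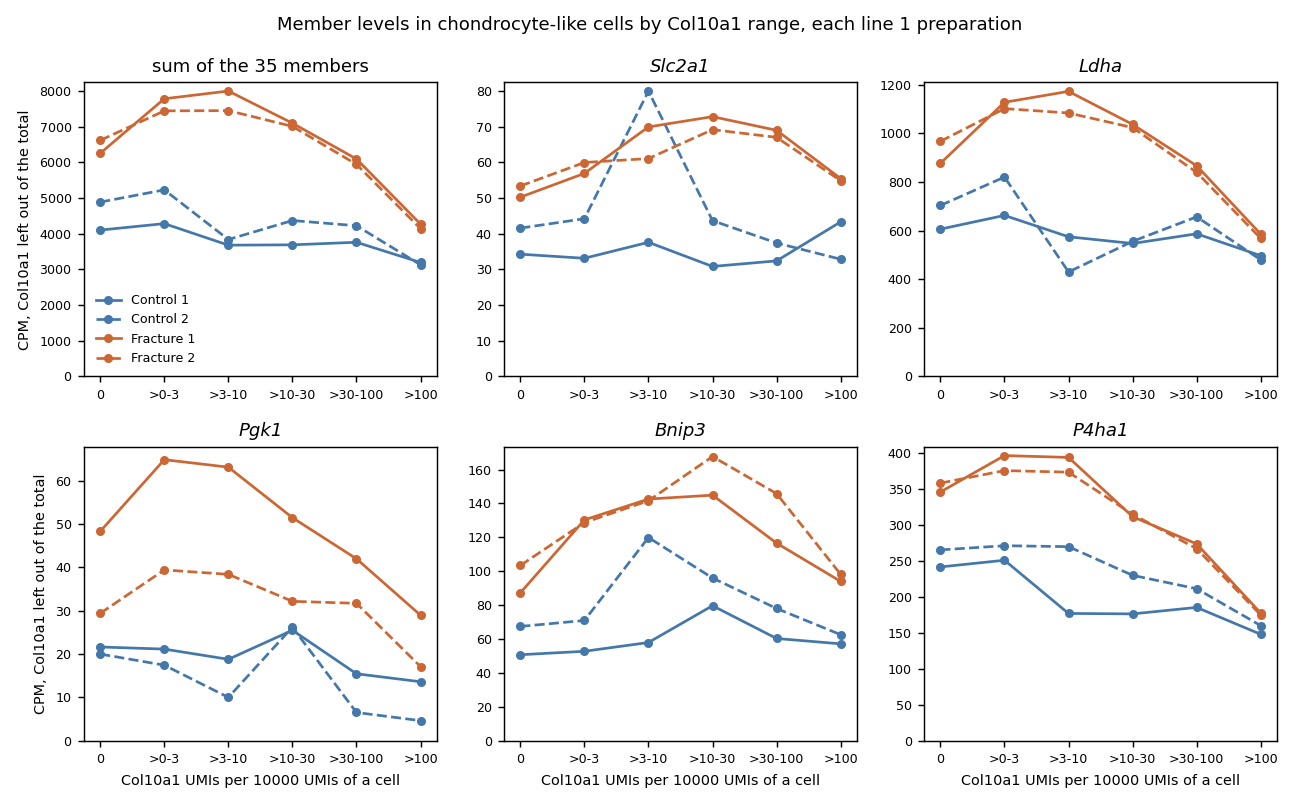
Levels in CPM, with Col10a1 left out of the total, along 6 ranges of Col10a1 UMIs per 10000 in chondrocyte-like cells, in 6 panels, with 1 line for each preparation. The summed level of the 35 genes in Fracture falls from 8001 and 7451 CPM over 3 to 10 to 4268 and 4141 CPM over 100, and Control preparation 2 has only 22, 19 and 24 cells in the 3 ranges from 3 to 100.

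With the main settings BMSC-like cells had the most calls of any class, 24 genes higher and 4 lower, in a class where 50.3% of all 14599 genes passed (24.9% higher and 25.4% lower). The median log2 change of the 35 was 0.74 against -0.03 over all genes, and the groups did not overlap for 33 of them (81.2% of all genes). Slc16a3 stood at 4.14, 2.44, 61.2 and 48.4 CPM and rose by 4.05 ± 0.30 (edgeR adjusted p = 0.00232). Pkm stood at 133, 93.3, 655 and 587 CPM and rose by 2.46 ± 0.20 (edgeR adjusted p = 0.00259), and Eno1, Gapdh, Ldha and Pdk1, of which Eno1 and Pdk1 did not pass in chondrocyte-like cells, rose by 1.92, 1.76, 1.74 and 2.04. Pdk1 stood at 5.14, 5.90, 22.6 and 22.6 CPM (SE 0.13, edgeR adjusted p = 0.00195), Hk2 at 17.0, 12.4, 55.8 and 74.2 CPM (2.14 ± 0.23, edgeR adjusted p = 0.00391) and Pgk1 at 6.39, 4.88, 27.9 and 19.1 CPM (2.05 ± 0.26, edgeR adjusted p = 0.00514). Mxi1 fell from 106 and 120.4 to 21.8 and 22.4 CPM (-2.36 ± 0.10, edgeR adjusted p = 0.00132), opposite in sign to chondrocyte-like cells. Slc2a3 stood at 24.7, 23.3, 11.2 and 8.95 CPM (-1.25 ± 0.15, edgeR adjusted p = 0.00474), Ndrg1 at 32.6, 29.8, 15.8 and 17.6 CPM (-0.90 ± 0.11, edgeR adjusted p = 0.00514) and Bnip3l at 104, 117, 64.5 and 65.9 CPM (-0.76 ± 0.090, edgeR adjusted p = 0.00466). None of the genes given with levels here had overlapping groups. Without integration endothelial-like cells had the most calls of any class, 24 (36.1% of all genes). The BMSC-like class held 2314 and 1525 cells in Control against 981 and 1042 in Fracture. Clustering without integration put 578 and 617 Fracture cells in the class and called 19 of the 35, 14 higher and 5 lower, with a median log2 change of 0.43, and without Fracture preparation 1 there were 15 calls (43.2% and 10.8% of all genes).

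Fibroblast-like cells showed 13 genes higher and 3 lower, where 6.56% and 6.2% of all 12408 genes passed, and a median log2 change of 0.91 against -0.004. The groups did not overlap for 31 of the 35, and for 64.5% of all genes. Ankrd37 stood at 6.14, 3.27, 33.4 and 26.4 CPM (2.54 ± 0.30, edgeR adjusted p = 0.0189) and Hif1a at 141, 89.9, 420.2 and 399.8 CPM (1.82 ± 0.24, edgeR adjusted p = 0.0219). Pfkfb3 stood at 5.32, 8.18, 23.6 and 22.8 CPM (1.86 ± 0.24, edgeR adjusted p = 0.0210), Hk2 at 25.4, 13.1, 61.2 and 75.4 CPM (1.76 ± 0.30, edgeR adjusted p = 0.0340) and P4ha2 at 166, 121, 490 and 463 CPM (1.72 ± 0.19, edgeR adjusted p = 0.0165). In each of these 5 both Fracture preparations lay above both Control preparations. Ndrg1 fell from 147 and 133 to 33.3 and 38.5 CPM (-1.96 ± 0.13, edgeR adjusted p = 0.00971), and Mxi1 from 64.7 and 56.4 to 31.8 and 32.6 CPM (-0.92 ± 0.13, edgeR adjusted p = 0.0236). Egln3, which rose in chondrocyte-like cells, stood at 20.9, 13.9, 4.97 and 6.16 CPM here and fell by 1.69 on the log2 scale (SE 0.28, edgeR adjusted p = 0.0324). Slc2a1 did not pass, with 42.2 CPM in Control preparation 1 and 181 CPM in Control preparation 2 around the Fracture values of 48.8 and 52.0 CPM. No more than 318 and 118 Control cells stand behind these values. Clustering without integration gave 12 calls, 7 higher and 5 lower, with a median of 0.19 (22.4% of all genes). No filter on low counts gave 25 (15.3% of all genes). The calls did not hold without either Fracture preparation, and neither did those over all genes tested. Without Fracture preparation 1 or 2 the median log2 change was 0.88 and 1.00, and without Control preparation 1 or 2 it was 1.09 and 0.77.

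In osteoblast-like cells 11 of 33 genes tested rose and 1 fell, where 9.75% and 6.54% of all 13753 genes passed, with a median log2 change of 0.30 against -0.004. The groups did not overlap for 27 of the 33, and for 65.7% of all genes. Slc16a3 stood at 1.12, 1.71, 8.05 and 8.0 CPM (2.53 ± 0.22, edgeR adjusted p = 0.00745) and Hk2 at 10.8, 13.2, 44.3 and 56.7 CPM (2.07 ± 0.17, edgeR adjusted p = 0.00661). P4ha2 stood at 98.5, 100.4, 208 and 213 CPM (1.08 ± 0.060, edgeR adjusted p = 0.00301), and P4ha1 at 206, 201, 296 and 308 CPM (0.57 ± 0.061, edgeR adjusted p = 0.0103). Hif1a stood at 63.8, 53.7, 92.6 and 91.9 CPM (0.65 ± 0.10, edgeR adjusted p = 0.0214) and Ldha at 195, 169, 285 and 270.1 CPM (0.61 ± 0.091, edgeR adjusted p = 0.0197). Ndrg1, the gene that fell, stood at 52.5, 56.1, 29.2 and 31.7 CPM (-0.83 ± 0.083, edgeR adjusted p = 0.00937). None of these genes had overlapping groups. Bnip3, which rose in chondrocyte-like cells, lay between 6.88 and 7.92 CPM with overlapping groups, and Adm went from 6.61 and 3.16 to 1.67 and 1.34 CPM without passing (edgeR adjusted p = 0.0535). Egln3 and Car9 were too scarce to test, at 2 to 8 and 0 to 8 UMIs a preparation. The calls in this class did not hold without either Fracture preparation, and neither did those over all genes tested. Without Fracture preparation 1 or 2 the median log2 change was 0.212 and 0.308, and without Control preparation 1 or 2 it was 0.305 and 0.245.

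Endothelial-like cells had 17 genes higher and 5 lower, where 17.8% and 16.6% of all 14300 genes passed (34.4% in both directions), with a median log2 change of 0.39 against 0.003. Smooth muscle-like cells had 7 of 31 genes tested higher and 2 lower, where 13% and 11.6% of all 10262 genes passed (0.23 against -0.001). The groups did not overlap for 30 endothelial and 22 smooth muscle genes of the list, and for 74.5% and 67.9% of all genes. Among the endothelial genes that rose, Higd1a stood at 62.2, 56.4, 130 and 126 CPM (1.11 ± 0.078, edgeR adjusted p = 0.00770), Tpi1 at 61.3, 53.1, 123 and 114 CPM (1.05 ± 0.10, edgeR adjusted p = 0.00899) and Pkm at 334, 343, 708 and 629.5 CPM (0.98 ± 0.086, edgeR adjusted p = 0.00864). Eno1 stood at 93.1, 89.8, 174 and 145 CPM (0.80 ± 0.11, edgeR adjusted p = 0.0133). In all 4 both Fracture preparations lay above both Control preparations. Of the endothelial genes that fell, Kdm3a stood at 37.3, 37.8, 25.4 and 27.3 CPM (-0.51 ± 0.093, edgeR adjusted p = 0.0220), Bnip3l at 144, 150.0, 101 and 109 CPM (-0.49 ± 0.072, edgeR adjusted p = 0.0152) and Hk1 at 65.6, 66.1, 53.6 and 55.4 CPM (-0.27 ± 0.068, edgeR adjusted p = 0.0423), and Slc2a3 fell by 1.77 on the log2 scale. In smooth muscle-like cells Hk2 stood at 6.45, 2.47, 31.6 and 27.7 CPM, from 23, 3, 42 and 39 UMIs (2.52 ± 0.39, edgeR adjusted p = 0.0120), and Slc16a3 at 5.89, 5.76, 27.1 and 24.1 CPM, from 21, 7, 36 and 34 UMIs (2.12 ± 0.27, edgeR adjusted p = 0.00708). So few molecules leave the size of these rises uncertain. Ldha stood at 236, 246, 552 and 549 CPM (1.19 ± 0.12, edgeR adjusted p = 0.00427), P4ha1 at 53.9, 54.3, 86.5 and 93.0 CPM (0.73 ± 0.14, edgeR adjusted p = 0.0196) and P4ha2 at 40.4, 39.5, 72.2 and 58.9 CPM (0.71 ± 0.18, edgeR adjusted p = 0.0402). Gpi1 was lower in smooth muscle-like cells, at 196, 164, 120.4 and 122 CPM (-0.57 ± 0.14, edgeR adjusted p = 0.0385), where it was higher in endothelial-like cells (0.32), and Ndrg1 stood at 141, 96.3, 30.9 and 27.0 CPM (-2.05 ± 0.24, edgeR adjusted p = 0.00561). Hardly any call in these 2 classes held without either Fracture preparation, and over all genes tested few or none did. Without Fracture preparation 1 or 2 the median log2 change was 0.418 and 0.449 in endothelial-like and 0.029 and 0.168 in smooth muscle-like cells.

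RNA of other cell types and cell quality moved with these results. In chondrocyte-like cells the osteoblast markers went from 7086 and 8448 to 13000 and 13830 CPM, and the BMSC markers from 826 and 968 to 110.3 and 119.9 CPM. The median share of mitochondrial UMIs there went from 2.65% and 2.51% to 1.79% and 1.82%. The chondrocyte markers in endothelial-like cells reached 3.16% and 0.955% of their level in chondrocyte-like cells in Control but 15.7% and 16.2% in Fracture, and in smooth muscle-like cells 1.68% and 1.57% against 11.8% and 6.7%. In fibroblast-like cells the shares were 1.97% and 0.879% against 7.89% and 6.84%, in BMSC-like cells 0.832% and 0.427% against 3.03% and 3.33%, and in osteoblast-like cells 6.69% and 7.05% against 4.88% and 4.88%. The summed 7 erythroid markers went from 65.9 and 149 to 5617 and 4788 CPM in smooth muscle-like, from 57.6 and 141 to 1547 and 1954 CPM in fibroblast-like and from 1053 and 187 to 3709 and 4007 CPM in endothelial-like cells. They reached 550 and 482 CPM in Fracture chondrocyte-like cells from 21.7 and 153 CPM in Control. The median share of mitochondrial UMIs in smooth muscle-like cells went from 6.88% and 5.39% to 2.87% and 2.97%. The part of osteoblast, BMSC and erythroid RNA and of cell quality in these results was not tested. With the chondrocyte-like profile subtracted in that proportion (a setting added after the values were seen), the calls went from 22 to 12 in endothelial-like cells, from 9 to 7 in smooth muscle-like, from 16 to 20 in fibroblast-like, from 28 to 27 in BMSC-like and stayed at 12 in osteoblast-like cells. Of all genes 26.6%, 22.5%, 13.6%, 49.9% and 15.8% were then called. Most of the loss was among the genes that were higher: endothelial-like cells then had 7 higher and 5 lower, with a median log2 change of 0.20 in place of 0.39, and smooth muscle-like cells 4 higher and 3 lower, with a median of 0.019 in place of 0.23 and 16 of 31 genes above 0. The medians after the subtraction were 0.92 in fibroblast-like, 0.69 in BMSC-like and 0.33 in osteoblast-like cells. Endothelial P4ha2 went from 43.7 and 37.9 to 76.2 and 74.3 CPM (0.88 ± 0.097, edgeR adjusted p = 0.00994), but after the subtraction it was lower in Fracture (-0.69, edgeR adjusted p = 0.0278), and with the highest 6% of doublet scores removed it no longer passed (0.091, edgeR adjusted p = 0.533). Endothelial Higd1a went from a log2 change of 1.11 to 0.036 and Eno1 from 0.80 to 0.38. In smooth muscle-like cells P4ha2 went from 0.71 to 0.019 and P4ha1 from 0.73 to 0.41. None of these passed after the subtraction.

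Some genes were called in 1 direction in every class. Hk2, Ldha, P4ha1 and P4ha2 were called higher in all 6 stromal classes, and Slc16a3, Gapdh and Hif1a in 5. Of the 9748 genes tested in all 6 classes, 1.17% were called higher in all 6 and 3.63% in at least 5, against 4 and 7 of the 30 members tested in all 6. After the subtraction Hk2, Ldha, Slc16a3 and Gapdh were called higher in 4 of the other 5 classes and P4ha1, P4ha2 and Hif1a in 3, with P4ha2 lower in endothelial-like cells as given above. For Slc16a3 these include osteoblast-like cells, where the log2 change became 9.77. The subtraction sets negative values to 0, and Slc16a3 was scarce there in Control, so that call says little. Ndrg1 was called lower in all 6, from -0.37 in chondrocyte-like to -2.05 in smooth muscle-like cells, where 0.431% of the 9748 genes were, and it was still lower after the subtraction in each of the 5 (from -0.73 to -1.99). Endothelial Ndrg1, its highest level, stood at 282 and 278 CPM in Control and 139.6 and 159.8 CPM in Fracture (-0.90 ± 0.088, edgeR adjusted p = 0.00899). In all, 30 genes were higher in at least 1 class and 8 lower in at least 1, with 5 in both directions: Hk1, Gpi1, Egln3, Kdm3a and Mxi1. Among the 30 members tested in all 6 classes these counts were 26, 7 and 4, where the shares of the 9748 genes were 48.6%, 43.8% and 14%. Pfkm and Pfkfb4 were called in none of the 6 classes by edgeR (1 of the 30, against 21.7% of the 9748 genes).

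The size of the Fracture difference depended on the class for most of the list. A test of class by group over the 6 stromal classes passed for 32 of the 35 genes, where 60.1% of all 16940 genes passed, with Slc2a3 (edgeR adjusted p = 0.0606), Hk2 (0.0713) and Pfkfb4 (0.209) as the exceptions. Without Fracture preparation 2 there were 21 calls and without Fracture preparation 1 there were 23 (29.1% and 28.0% of all genes). This test speaks of unequal change and not of its order, and the depth per cell differs between classes and groups, with a median of 4137 and 5345 UMIs in endothelial-like Control cells against 7523 and 8170 UMIs in Fracture, and of 18570 and 21283 UMIs in osteoblast-like Control cells against 11149 and 12093 UMIs in Fracture.

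As a description of levels over the 4 preparations, chondrocyte-like cells had the highest mean CPM of 13 of the 35 genes and fibroblast-like cells of 8, and osteoblast-like cells had the lowest of 25. The same order was not taken over all genes, so these counts do not set the list apart. CPM is a share of the total, and the 8 osteoblast markers alone held 106900 and 124400 CPM in osteoblast-like Control cells. Their part in the low levels there was not tested. The top class was above the next within each of the 4 preparations for 14 genes, but its whole range over the preparations lay above that of the next for only 4 genes: Pfkl in chondrocyte-like cells (96.9 CPM, next endothelial-like at 61.3), Pfkp (150.0 CPM, next smooth muscle-like at 71.6) and Egln3 (11.6 CPM, next endothelial-like at 2.87) in fibroblast-like cells, and Ddit4 in endothelial-like cells (85.1 CPM, next chondrocyte-like at 57.5). For the other genes the ranges of the top 2 classes overlap. Ndrg1 had its highest mean in endothelial-like cells (217 CPM) and its lowest in chondrocyte-like cells (13.3 CPM), Mxi1 its highest in BMSC-like cells (70.5 CPM), and Hif1a its highest in chondrocyte-like (270.0 CPM) and its lowest in osteoblast-like cells (75.9 CPM). Osteoblast-like cells lay low for Eno1 (48.7 CPM against 350.4 in chondrocyte-like cells) but not for P4ha1 (253.7 against 265.2 CPM).

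**Figure D5:**
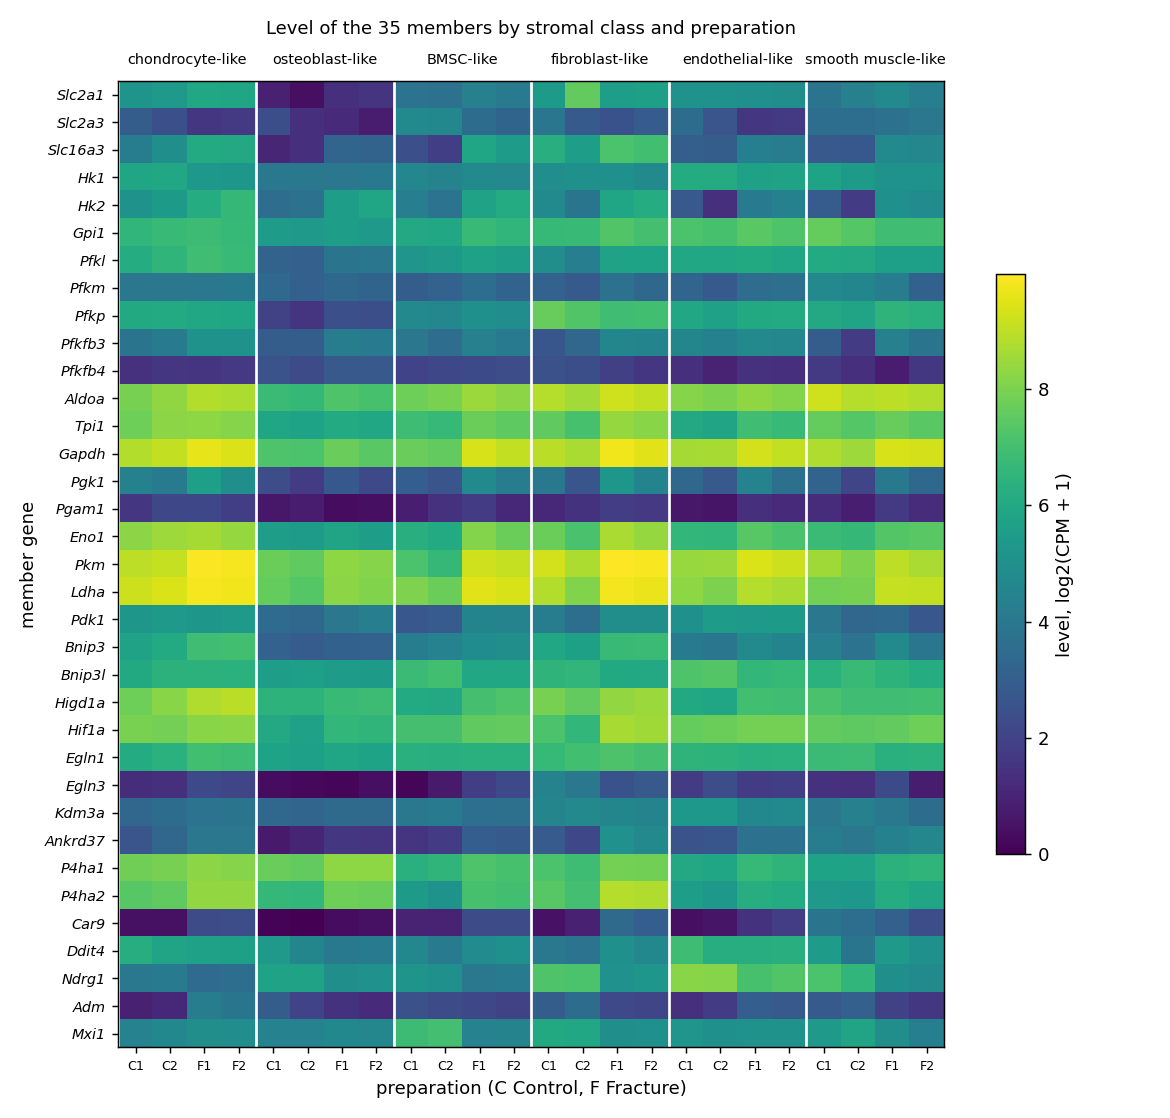
Heat map of the level of each of the 35 genes, as log2(CPM + 1), in the 6 stromal classes, with 1 column for each preparation. Brighter colours stand for higher levels. Osteoblast-like columns are darkest for most glycolytic genes, and Ndrg1 is brightest in endothelial-like and darkest in chondrocyte-like columns.

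In the same classes the wider pathway lists held genes that moved the opposite way. Epas1, which encodes the other oxygen-labile HIF subunit, stood at 489.5 and 721 CPM in BMSC-like Control cells and 62.5 and 76.5 CPM in Fracture (-3.12 ± 0.24, edgeR adjusted p = 0.00237), and it was lower in fibroblast-like (-3.10 ± 0.41) and endothelial-like cells (-1.23 ± 0.092) and smooth muscle-like cells (-0.96 ± 0.13) too. In chondrocyte-like cells as a whole it did not pass (0.16), but the Col10a1 ranges went opposite ways: in Col10a1-low cells it stood at 30.6, 35.1, 6.35 and 7.50 CPM and fell by 2.24 on the log2 scale (SE 0.13, edgeR adjusted p = 0.00217), and in Col10a1-high cells it stood at 50.5, 51.8, 67.7 and 68.3 CPM and rose by 0.41 ± 0.083 (edgeR adjusted p = 0.0295). The difference of these steps was 2.68 ± 0.11 (edgeR adjusted p = 7.464e-10). The BMSC markers went from 977.1 and 1201 CPM in Control to 79.02 and 93.08 CPM in Fracture in Col10a1-low cells. In Col10a1-high cells they went from 254.4 and 174.6 to 141.1 and 146.5 CPM. Their part in the course of Epas1 was not tested. Vegfa, higher in chondrocyte-like cells, fell by 0.91 on the log2 scale in BMSC-like cells (SE 0.087, edgeR adjusted p = 0.00328). Bhlhe41 likewise had opposite signs, -1.51 in chondrocyte-like and 2.38 in BMSC-like cells. Of the wider HIF and hypoxia list, 14 genes were higher and 14 lower among 39 tested in BMSC-like cells, with a median log2 change of 0.031, against 24 higher and 4 lower of the 35. These are 71.8% of that list and 80% of the 35, where 24.9% of all genes passed higher and 25.4% lower.

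By class, the wider HIF and hypoxia list held 12 higher and 4 lower genes of 38 in osteoblast-like, 10 and 1 of 37 in fibroblast-like, 14 and 6 of 37 in endothelial-like and 10 and 2 of 34 in smooth muscle-like cells. These are 42.1%, 29.7%, 54.1% and 35.3% of the list, where 16.3%, 12.8%, 34.4% and 24.6% of all genes passed. The wider glycolysis and pyruvate list held 2 and 2 of 26 in osteoblast-like, 8 and 5 of 27 in BMSC-like, 4 and 3 of 23 in fibroblast-like, 4 and 3 of 24 in endothelial-like and 1 and 5 of 18 in smooth muscle-like cells. These are 15.4%, 48.1%, 30.4%, 29.2% and 33.3% of the list, which lies below the share of all genes in osteoblast-like, BMSC-like (50.3%) and endothelial-like cells. Bpgm, lower in chondrocyte-like cells, was higher in BMSC-like (0.97 ± 0.12), fibroblast-like (1.49 ± 0.21), endothelial-like (1.61 ± 0.17) and smooth muscle-like cells (2.13 ± 0.26). Erythroid markers were higher in Fracture in all of these classes, chondrocyte-like included, and went from 65.9 and 149 to 5617 and 4788 CPM in smooth muscle-like cells. Their part in the Bpgm values was not tested. Slc16a1, the lactate transporter MCT1, was higher in BMSC-like (1.54 ± 0.19) and fibroblast-like (0.98 ± 0.15) but lower in endothelial-like cells (-1.41 ± 0.29). Bhlhe40, a transcriptional repressor, was higher in osteoblast-like (2.37 ± 0.11), BMSC-like (2.54 ± 0.14) and smooth muscle-like cells (2.58 ± 0.48), and P4ha3, another collagen prolyl hydroxylase subunit, in BMSC-like (2.79 ± 0.12), fibroblast-like (2.05 ± 0.25) and smooth muscle-like cells (5.07 ± 0.55). In endothelial-like cells Mif, a cytokine, was higher (1.31 ± 0.079), and in smooth muscle-like cells Slc2a4, the insulin-responsive glucose transporter, was lower (-2.38 ± 0.23). These genes passed edgeR's test at an adjusted p under 0.05.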

How the data were processed

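The authors deposited 1 table for each of the 8 libraries, with raw counts of UMIs for every gene in every barcode and no normalization. The submitters' notes name bcl2fastq 2.19.1.403, UMI-tools 1.0.0, STAR 2.7.3a, Subread featureCounts 1.6.4 and mm10. The study's methods name STARsolo, Gencode and, as a filter of barcodes, EmptyDrops for its data in general. How the barcodes of these tables were selected before deposit is not given in the sources used here. The 35 genes and all other lists were chosen with earlier results of these data known.

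From those counts, cells with 500 to 6000 genes and at most 25% mitochondrial UMIs were kept, and genes seen in at least 3 cells. Seurat 5.3.0 corrected 30 principal components of 1914 variable genes with anchors between libraries. Cells were clustered on the first 12 of them at resolution 0.1. The 207 genes left out of this step include the 35, the wider pathway lists and cell cycle genes. Clusters were named from marker lists. Scrublet (scanpy 1.11.5) called 722 doublets (1.593%), which were kept, since under 0.5% of some libraries was called; removing them, or the highest 6% of scores, were alternatives. CPM is UMI counts of the summed cells scaled to a common total, which leaves out Col10a1 in the finer Col10a1 ranges only. TMM-scaled CPM uses edgeR's factors. UMI counts were summed by preparation and class and tested with edgeR 4.0.16 (quasi-likelihood, filterByExpr, TMM, Benjamini-Hochberg over all genes tested, adjusted p under 0.05), Fracture against Control within a class with no block, and Col10a1 ranges and class by group with the preparation as block. Fits were tested on simulated data with known changes. DESeq2 1.42.0, limma 3.58.1, R 4.3.3 and Python 3.11.15 were also used. All 35 genes could be named. Full values were given, per comparison, for up to 5 called members in each direction by size that averaged at least 20 CPM in either group, and in chondrocyte-like cells also for Hif1a, Slc2a1, Ldha, Pgk1, Bnip3, Egln3 and P4ha1, whatever their result; other members were given values where their role is described, after their values were seen. The rule also allowed, per comparison, up to 4 called genes of each wider list; in chondrocyte-like cells they are all named, in other comparisons only some of them, and Vegfa in BMSC-like and Epas1 in chondrocyte-like and Col10a1-high cells were added, both chosen after their values were seen. Levels of different genes are not ranked against each other, and the summed levels weigh abundant genes most. Alternatives were another scaling, no filter on low counts, DESeq2, clustering without integration, other Col10a1 limits, cells of at least 3000 UMIs, doublet removal and leaving out each preparation, and subtraction of the chondrocyte-like profile was added after seeing the data.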

Additional observations from a re-analysis of the deposited data

Results flagged for a closer look

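The Fracture difference depended on the cell class for 32 of the 35 genes, by a test of class by group over the 6 stromal classes (edgeR, preparation as block), where 60.1% of all genes tested passed.

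Between Col10a1-low and Col10a1-high chondrocyte-like cells, the log2 difference itself differed between Fracture and Control for 15 of the 35 genes by the interaction test in edgeR, where 13.4% of all genes passed. It was lower in Fracture for Egln3 (-2.64), Ddit4 (-1.35), Hk1 (-0.84), Eno1 (-0.64), Bnip3 (-0.59), Higd1a (-0.54), P4ha2 (-0.52), Ldha (-0.49), Pkm (-0.44), Pfkp (-0.43), P4ha1 (-0.42), Aldoa (-0.39), Gapdh (-0.37) and Egln1 (-0.33), and higher for Mxi1 (0.65). Egln3 rests on few molecules in Control, with 33 and 16 UMIs in Col10a1-low and 13 and 4 UMIs in Col10a1-high cells. With clustering without integration Mxi1 no longer passed (0.36, edgeR adjusted p = 0.103). What moves with these differences was not tested beyond the alternatives given with them.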

How the results depend on the processing

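Leaving out each preparation in turn gave between 5 and 33 calls of the 35 in chondrocyte-like, 1 and 26 in Col10a1-high, 0 and 31 in Col10a1-low, 0 and 20 in osteoblast-like, 15 and 31 in BMSC-like, 0 and 27 in fibroblast-like, 0 and 26 in endothelial-like and 0 and 11 in smooth muscle-like cells, 12 and 27 for Col10a1-high against low, 10 and 20 for Col10a1 class by group and 21 and 33 for class by group over 6 classes. The lone preparation left in a group is then assumed to vary like the other group, and every lowest of these counts came without a Fracture preparation. Of all genes, between 3.05% and 48.9% were called in chondrocyte-like, 0.572% and 31.8% in Col10a1-high, 0% and 46.9% in Col10a1-low, 0% and 37.7% in osteoblast-like, 10.8% and 60.6% in BMSC-like, 0% and 29.2% in fibroblast-like, 0% and 49.3% in endothelial-like and 2.31% and 27.9% in smooth muscle-like cells. The ranges were 22.5% to 35.2% for Col10a1-high against low, 6.77% to 11.6% for Col10a1 class by group and 28.0% to 57.2% for class by group over 6 classes. The log2 difference of the summed level stayed above 0 throughout, at 0.433 to 0.646 in chondrocyte-like, 0.508 to 0.553 in Col10a1-high, 0.62 to 0.876 in Col10a1-low, 0.432 to 0.577 in osteoblast-like, 0.929 to 1.099 in BMSC-like, 0.611 to 0.911 in fibroblast-like, 0.256 to 0.381 in endothelial-like and 0.148 to 0.379 in smooth muscle-like cells, and the difference in the Col10a1-high share at 31.9 to 32.7 points.

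Other settings moved some values. No filter on low counts gave 25 calls in fibroblast-like cells (15.3% of all genes). Subtracting the chondrocyte-like profile gave 12 in endothelial-like cells (26.6% of all genes) and turned P4ha2 there to -0.689. For Col10a1 class by group a limit of 3 gave 7 calls (10.8% of all genes). On TMM-scaled CPM the summed log2 difference was 0.737 in chondrocyte-like, 0.955 in Col10a1-low, 1.194 in BMSC-like and 0.447 in endothelial-like cells, and as a mean of log2(CPM + 1) it was 0.336 in osteoblast-like, 0.672 in BMSC-like and 0.511 in fibroblast-like cells. Subtracting the chondrocyte-like profile gave 0.138 in endothelial-like cells. The difference in the Col10a1-high share, 32.3 points, was 54.6 with a limit of 3, 28.3 with 30, 28.8 without integration, 33.0 with the highest 6% of doublet scores removed and 29.6 in cells of at least 3000 UMIs. The causes were not tested.

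Same-numbered preparations deviated together only weakly (correlations of 0.018 to 0.136 over genes, 2 pairs), and the numbers are not said to mark a shared day or litter. With the number as a replicate block there were 25 calls in chondrocyte-like, 14 in Col10a1-high, 20 in Col10a1-low, 12 in osteoblast-like, 27 in BMSC-like, 12 in fibroblast-like, 16 in endothelial-like and 6 in smooth muscle-like cells. Of all genes 30.8%, 7.87%, 22.9%, 10.1%, 45.6%, 5.38%, 20.7% and 15.5% were then called, in the same order of classes. Without the preparation block, Col10a1-high against low gave 21 calls, Col10a1 class by group 2 and class by group over 6 classes 29 (36.1%, 3.47% and 45.9% of all genes). Single named genes kept direction and side of the threshold in 828 of their alternatives, no longer passed in 141 and reversed in 1. Depth limits the scarce genes, since Egln3 and Car9 in osteoblast-like cells and Pfkfb4, Pgam1, Egln3 and Adm in smooth muscle-like cells could not be tested.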

Other observations

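The blood-lineage clusters that entered no test also carried these genes. In the basophil-like cluster the summed level of the 35 was 3712 and 3685 CPM in Control and 4178 and 3636 CPM in Fracture, but these are unlike cells under 1 name. The basophil markers summed to 31360 and 38170 CPM in Control and 9033 and 9028 CPM in Fracture, and the neutrophil markers to 4710 and 6983 against 38610 and 52840 CPM, with only 89 and 80 Fracture cells. In megakaryocyte-like cells, which have only 32 and 29 Fracture cells, it was 6732 and 6475 CPM in Control, above every stromal class in Control, and 5864 and 6495 CPM in Fracture, where the chondrocyte markers reached 10600 and 10790 CPM from 1324 and 245 CPM in Control. Slc2a3, the glucose transporter that platelets also use, was among the 10 leading genes of that cluster. The 3 glucose and lactate transporters, Slc2a3 among them, held 2087 and 2451 CPM of its Control sums, against 59.2 and 75.6 CPM in chondrocyte-like Control cells. In erythroid-like cells the level was 2074 and 1767 CPM in Control and 3240 and 2746 CPM in Fracture, while the chondrocyte markers in this class went from 1005 and 194 to 28730 and 26360 CPM and the median share of mitochondrial UMIs from 14.4% and 6.97% to 1.82% and 1.85%. Their part in the difference was not tested.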
